A study of Mus musculus with 52 samples.

Results

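Trimethylation of histone H3 at lysine 4 (H3K4me3) was measured by chromatin immunoprecipitation and sequencing (ChIP-seq) in 3T3-immortalized fibroblasts from mouse embryos (MEFs) that had kept or lost MLL2, the H3K4 methyltransferase encoded by Kmt2d. The members were all libraries labelled H3K4Me3, 6 of the 52 libraries of the study, 3 of F/F cells (NGS-6279, NGS-6287, and NGS-6295) and 3 of FC/FC cells (NGS-6283, NGS-6291, and NGS-6299). In both genotypes, both MLL2 alleles carried loxP sites. F/F cells had no tamoxifen (0 h). FC/FC cells were exposed to hydroxyl-tamoxifen for 24 h, so that the exons between the loxP sites were cut out, and were collected after several more days in culture. Cells with 1 intact MLL2 allele that had also received the drug were not analysed here for H3K4me3. Exposure to the drug and loss of MLL2 therefore go together in every comparison and cannot be told apart. The methods call the libraries of a genotype independent experiments. Neither separate clones nor separate embryos are named in the labels, so the p-values measure the spread between these libraries, which may be technical.

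H3K4me3 marks the nucleosomes around the transcription start sites (TSSs) of active and poised genes and is richest at CpG islands. It is written by the COMPASS family of methyltransferases, erased by KDM5 demethylases, and bound by readers such as the TFIID subunit TAF3 and the ING proteins. MLL2 belongs to this family but is known mainly for H3K4 monomethylation at enhancers, and most promoter H3K4me3 is attributed to other members. The comparison addressed whether the mark, its extent, and its genomic sites differed between cells with and without MLL2.

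The level of a gene is given as RPKM (reads scaled to transcript length and library total) over its longest RefSeq transcript with 500 bp added at each end, as deposited. Values per library are listed in the order NGS-6279, NGS-6287, and NGS-6295 for F/F, then NGS-6283, NGS-6291, and NGS-6299 for FC/FC. The reads summed over the transcript intervals, by which the RPKM were scaled, were 29716371 to 48469734 in F/F and 31113989 to 33574912 in FC/FC. Because RPKM are relative to the reads of each library, a change of the same proportion at every gene could not be seen. In these bulk libraries, fewer cells with the mark and less of it per cell cannot be told apart either. Of 11 fibroblast markers, 10 had an H3K4me3 peak at the TSS in all 6 libraries, the exception being Thy1. Their summed RPKM ranged from 80.3 to 82.9 in F/F cells and from 81.5 to 83.5 in FC/FC cells. None of 6 blood and 2 skeletal muscle markers had such a peak. Peaks were present in all 6 libraries at Cdh1 and Epcam of 7 epithelial markers, at Kdr of 4 endothelial, Tubb3 of 4 neural, Pparg of 2 adipocyte, and Dazl of 4 germline and pluripotency markers. For the other marker lists, the summed RPKM was at most 1.67 in any library.

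The landscape of H3K4me3 differed between the genotypes by less than the spread between libraries. MACS peaks numbered 18158, 17545, and 18701 in F/F and 18296, 17129, and 17672 in FC/FC. The mean difference was -436 peaks, with an exact two-sided permutation p of 0.5, where 3 libraries against 3 allow a smallest p of 0.1. Peaks covered 40.4, 42.5, and 44.3 Mb in F/F and 38.9, 43.6, and 40.5 Mb in FC/FC (exact permutation p = 0.5). The ranges overlapped for both measures, and NGS-6291 had the fewest peaks but the greatest length covered among the FC/FC libraries. Its median peak width of 2355 bp was above that of the other two FC/FC libraries (1988.5 and 2141 bp) and of the F/F libraries (2070.5, 2234, and 2188 bp), and the genotypes did not differ (exact permutation p = 1.0).

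Most of the mark lay at promoters in both genotypes. Within 1 kb of a TSS were 65.8%, 67.9%, and 64.8% of the F/F peaks and 66.4%, 69.4%, and 67.6% of the FC/FC peaks (exact permutation p = 0.3). Of 23043 genes, 54.7%, 53.6%, and 54.8% had a peak within 1 kb of the TSS in the F/F libraries and 55.2%, 54.3%, and 54.9% in the FC/FC libraries (exact permutation p = 0.5). The Spearman correlation of RPKM was taken across all 28748 deposited transcripts, which are not independent replicates. It was 0.974 to 0.979 between libraries of the same genotype and 0.972 to 0.980 between libraries of different genotypes.

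**Figure D1:**
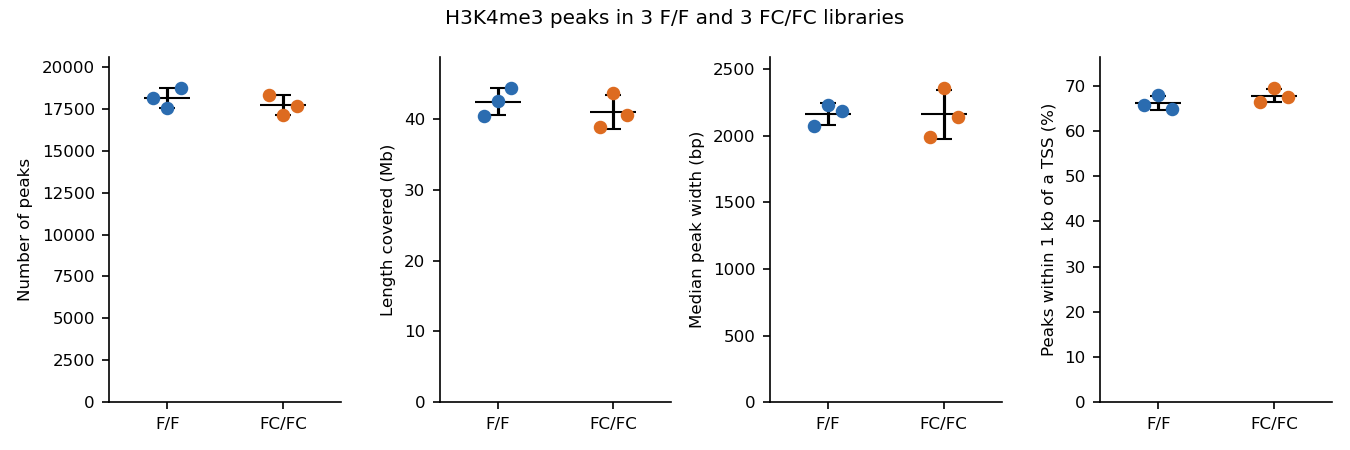
H3K4me3 peaks in each library. Blue points are F/F and orange points FC/FC libraries, horizontal lines the mean, and bars the SD (n = 3); from left to right the axes show the number of peaks, the length covered (Mb), the median peak width (bp), and the share of peaks within 1 kb of a TSS (%). The 2 genotypes overlap in all 4 measures.

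The promoters with a peak in all 6 libraries were rich in CpG dinucleotides. RefSeq promoters (build GRCm38.p6, that is mm10, 250 bp before to 50 bp after the start) could be matched to 17362 of the 23043 genes. The median number of CpG dinucleotides in these 300 bp was 22 at the 9540 matched genes with a TSS peak in all 6 libraries, 15 at the 518 with a peak in 1 to 5 libraries, and 3 at the 7304 without one. The motif GGGCGG, searched on both strands, was found in 69.8%, 57.1%, and 17.8% of these promoters. Among all 32851 RefSeq promoters the median was 7 CpG dinucleotides and 35.7% held the motif.

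The highest RPKM belonged to short genes and were nearly the same in both genotypes. Myl6, a myosin light chain, had 78.9, 77.3, and 75.4 in F/F and 78.3, 76.1, and 76.1 in FC/FC. Gadd45b, a stress-inducible gene, had a mean of 73.8 ± 2.3 in F/F and 72.7 ± 2.6 in FC/FC (SD, n = 3). Rpl41, Id1, LOC100504703 (A730063M14Rik in RefSeq), Sf3b5, and Rps12 followed with means of 60.8 to 74.1, and log2 fold changes (FC/FC minus F/F, on the log2(RPKM + 0.1) scale) of -0.09 to -0.01. Pisd-ps3, a pseudogene on an unplaced contig, had the highest value of all genes (139 ± 3.9 in F/F and 144 ± 5.2 in FC/FC) but no peak at its TSS, and reads may be shared there with other copies of the sequence.

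Of the widest regions, none passed the test of width. Peaks of the 6 libraries were merged into 20154 regions, of which 15047 (74.7%) had a peak in all 6 libraries. A region of 44954 bp over the HoxA cluster (chr6:52220657-52265610, from Hoxa9 to Hoxa13 and Hottip) was covered over 43284, 43948, and 44640 bp in F/F and 43298, 44043, and 43236 bp in FC/FC. At Hoxd13, Hoxd12, and Evx2 (chr2:74654970-74677787), a further cluster of body-patterning genes, the cover was 21864, 22081, and 22787 bp in F/F and 21461, 21873, and 21694 bp in FC/FC. Ctnnd1 (p120-catenin), Thbs1 (thrombospondin), Tfap2b (a transcription factor), Lmna (lamin A/C), Hoxd10 and Hoxd11, and Tsc22d2 lay in the next widest regions. Their log2 changes of width were between -0.11 and -0.00, and adjusted p-values of limma were 1.00.

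Gene by gene, differences of H3K4me3 were small. Genes with RPKM above 1 in at least 3 libraries were tested, 9073 in all, of which 97.1% had a TSS peak in all 6 libraries. Of the 12205 genes with such a peak, 8808 were among those tested. RPKM is averaged over the whole transcript, so a long gene with a peak can fall below this filter. Of the 9073 tested genes, 97.7% had an absolute log2 fold change under 0.25, with a median of 0.05 and a median standard error of 0.07. In either direction, 9 genes exceeded 0.5, and 1 gene exceeded 1. By limma, without pairing of libraries, 0 genes were higher (0.0%) and 0 lower (0.0%) at an adjusted p under 0.05, the smallest adjusted p being 0.0932. At an unadjusted p under 0.05, 156 were higher (1.72%) and 182 lower (2.01%), and limma-voom on the recovered reads also passed 0 genes, with 124 higher and 164 lower unadjusted. The unadjusted counts rested on single libraries: they were 702 and 218 without NGS-6291, 360 and 222 without NGS-6279, 82 and 120 without NGS-6287, and 82 and 139 without NGS-6283. The 3 values of a genotype were all above those of the other for 309 genes higher in FC/FC (3.41%) and 351 lower (3.87%). A single fit of all 18 H3K4me1, H3K4me2, and H3K4me3 libraries, which takes the spread from all marks, passed 7 genes higher (0.0772%) and 23 lower (0.253%). A fit that paired libraries by the order of their numbers, added after seeing the data, passed 23 genes higher and 26 lower of the 9073. The labels do not give such pairs.

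Among the 8 genes with the smallest p and a lower value in FC/FC, Crabp2, which encodes a retinoic acid-binding protein, had the largest difference. Its RPKM in F/F was 1.82, 2.34, and 2.17, compared with 0.960, 1.15, and 0.866 in FC/FC, a log2 fold change of -1.02 (SE 0.12, limma adjusted p = 0.0932). All F/F values lay above all FC/FC values. The TSS peak of Crabp2 spanned 2440, 2658, and 2837 bp in F/F and 1049, 2397, and 1732 bp in FC/FC. Without NGS-6291, its log2 fold change was -1.12 and the limma adjusted p 0.0188, which made it the only gene that passed in any unpaired fit of the H3K4me3 libraries alone.

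Epn3, an endocytic adaptor of the epsin family, had 1.70, 2.08, and 1.95 in F/F against 1.19, 1.18, and 1.21 in FC/FC (log2 fold change -0.63, SE 0.07, limma adjusted p = 0.0932). Its genotypes did not overlap, and its TSS peak, present in all F/F libraries, was called in 2 of the 3 FC/FC libraries. Adm2, a peptide hormone gene, had 1.63, 1.51, and 1.50 against 1.09, 1.02, and 1.09 (log2 fold change -0.50, SE 0.06, limma adjusted p = 0.0932). Tmem119, a transmembrane protein gene used as a marker of microglia, had 4.20, 3.27, and 4.01 against 2.64, 2.22, and 2.10 (log2 fold change -0.69, SE 0.11, limma adjusted p = 0.292). In both genes each FC/FC value was below each F/F value.

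The remaining 4 genes of this group were Pdgfb, the B chain of platelet-derived growth factor (-0.51), Cdh3, P-cadherin (-0.40), S100a10, a partner of annexin A2 (-0.33), and 4930449E18Rik, a noncoding transcript (-0.38). Pdgfb had RPKM of 2.20, 1.90, and 2.14 in F/F and 1.47, 1.41, and 1.41 in FC/FC. The genotypes did not overlap at any of the 4, and the limma adjusted p-values were 0.139 to 0.369. Outside the naming rule and chosen after their values were seen, Nupr1 and Nppb also differed by more than 0.5. Nupr1, a stress-inducible nuclear protein, had 3.63, 5.11, and 4.61 in F/F and 1.67, 2.85, and 2.37 in FC/FC (log2 fold change -0.94), and Nppb, brain natriuretic peptide, means of 3.11 and 1.90 (-0.67).

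Of the 8 genes with the smallest p and a higher value in FC/FC, Atoh7, a basic helix-loop-helix factor of retinal neurons, had the largest difference. Its F/F RPKM values were 3.74, 2.78, and 3.73, compared with 5.87, 4.64, and 5.41 in FC/FC (log2 fold change 0.63, SE 0.13, limma adjusted p = 0.484). Uchl1, a neuronal ubiquitin hydrolase, had 0.943, 0.931, and 0.950 against 1.28, 1.19, and 1.25 (log2 fold change 0.36, SE 0.05, limma adjusted p = 0.219). Both were higher in every FC/FC library than in any F/F library. Phlda2, an imprinted growth regulator, had 2.95, 3.10, and 2.97 against 3.78, 3.68, and 3.63 (log2 fold change 0.29). Also among them were 2810468N07Rik (Cerox1 in RefSeq, a noncoding RNA, 0.50), Cldn23, a claudin (0.36), Ddit4l, an inhibitor of mTOR signalling (0.28), and Kank3 (0.22). None of the 8 passed, with limma adjusted p-values of 0.219 to 0.521.

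**Figure D2:**
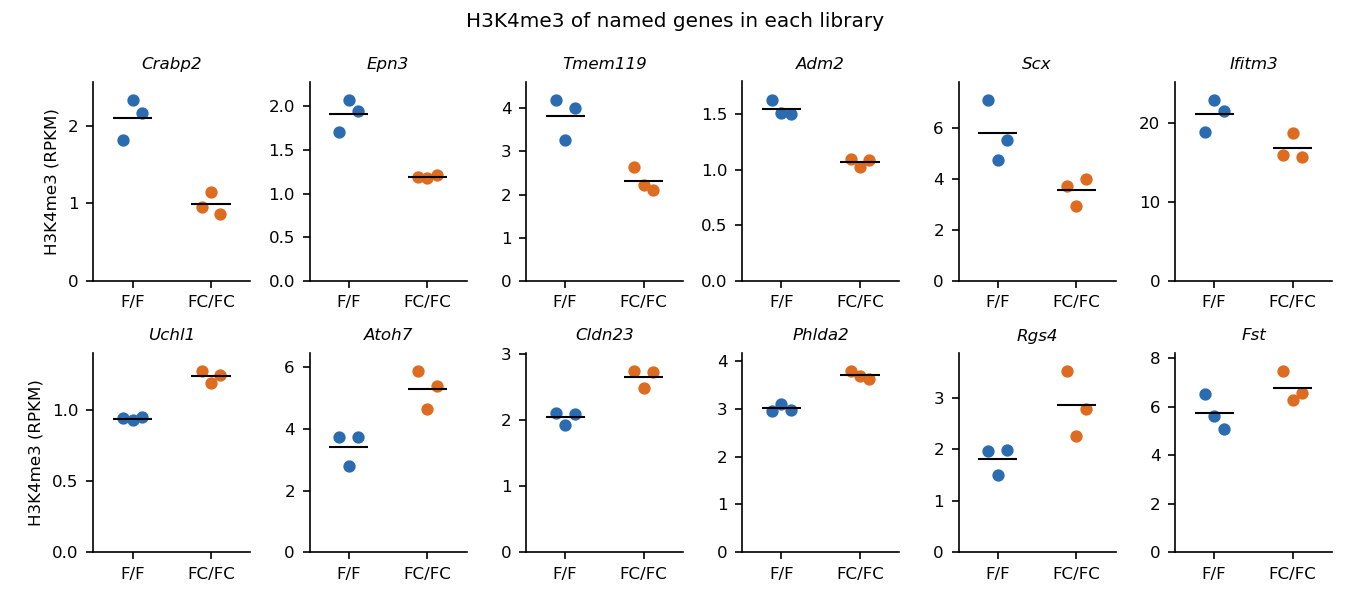
H3K4me3 of 12 named genes in each library. The vertical axes show RPKM from 0, blue points F/F and orange points FC/FC libraries, and lines the means; none of the genes passed the test. The genotypes do not overlap at Crabp2, Epn3, Tmem119, Adm2, Scx, Ifitm3, Uchl1, Atoh7, Cldn23, Phlda2, or Rgs4, and overlap at Fst.

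At the same 16 genes, H3K4me2 differed in the same direction at 8 of 8 with more H3K4me3 (log2 fold changes of 0.07 to 0.31) and at 7 of 8 with less (-0.67 to 0.01). For H3K4me1 the sign was shared at 5 of 8 and 8 of 8, respectively. Over all 9073 genes the median log2 fold change was 0.09 for H3K4me2 and 0.06 for H3K4me1, so a positive sign was the more common one. At Crabp2, H3K4me2 averaged 6.13 ± 0.21 RPKM in F/F and 3.82 ± 0.09 in FC/FC (SD, n = 3), and H3K4me1 was 3.48 ± 0.02 and 3.03 ± 0.21. At Epn3, H3K4me2 was 4.15 ± 0.14 and 2.85 ± 0.21. Whether the libraries of the 3 marks share cultures is not given in the labels.

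The difference between the changes of H3K4me3 and H3K4me2 was tested with an interaction term at the 8474 genes that passed the filter for both marks. By limma, 0 genes were more positive for H3K4me3 (0.0%) and 0 more negative (0.0%), with a smallest adjusted p of 0.505. At an unadjusted p under 0.05, 41 were more positive and 765 more negative for H3K4me3. After libraries were centred on their medians the numbers were 185 and 112, so the direction of this split rested on the scaling. Its size also rested on 1 library. Without the FC/FC H3K4me2 library NGS-6282, and with no centring, the numbers were 138 and 1566, with a smallest limma adjusted p of 0.159.

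Region by region, the extent of H3K4me3 was narrower in FC/FC at a few sites. Of the 15047 regions with a peak in all 6 libraries, 7 were narrower in FC/FC by limma at an adjusted p under 0.05 (0.0465%) and 0 wider (0.0%). At an unadjusted p under 0.05 there were 419 narrower (2.78%) and 84 wider (0.558%), and the libraries did not overlap at 627 narrower (4.17%) and 220 wider regions (1.46%). The median log2 change over all regions was -0.02. After libraries were centred on their median widths, 6 regions were narrower and 1 wider, with 491 narrower and 372 wider at an unadjusted p under 0.05. The number that passed rested on NGS-6291, the FC/FC library with the widest peaks. Without it, 31 regions were narrower and 0 wider, while without NGS-6295 4 were narrower.

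Of the 7 narrowed regions, 4 lay at promoters. Gprc5a, an orphan receptor induced by retinoic acid, is named outside the naming rule, after its values were seen, so that all 7 are given. Its peaks (chr6:135064552-135070105) covered 5137, 5318, and 4782 bp in F/F and 3375, 3432, and 3305 bp in FC/FC (log2 change -0.59, SE 0.06, limma adjusted p = 0.00804). The ranges of the upstream edges overlapped, while the last peak ended 4207 to 4443 bp downstream of the TSS in F/F and 2532 to 2569 bp downstream in FC/FC. In NGS-6279 and NGS-6295 this last peak was separate (scores of 74.7 and 148), and the main peak ended at 3196 and 2731 bp. Gprc5a did not pass after median centring (limma adjusted p = 0.0538), with no trend in the spread (0.123), or with peak scores of at least 100 (0.278).

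Mpg, a glycosylase of base excision repair (chr11:32224671-32227756), was covered over 2729, 2622, and 2824 bp in F/F and 1730, 1645, and 1534 bp in FC/FC (log2 change -0.74, SE 0.08, limma adjusted p = 0.0101). Here the upstream edge of the covered part differed, at -1834 to -1555 bp relative to the TSS in F/F and -515 to -358 bp in FC/FC. In NGS-6279 the outer part was a separate peak with a score of 61.0, and the main peak began at -596 bp. Adgra3 in the deposited tables, which is Adgra2 in RefSeq (chr8:27084590-27090868), an adhesion receptor of Wnt signalling in blood vessels of the brain, was covered over 6196, 5922, and 6026 bp and over 4354, 3820, and 3591 bp (-0.63, SE 0.07, limma adjusted p = 0.0128). NGS-6283 kept a separate downstream peak there, ending 4892 bp from the TSS. In the F/F library NGS-6287 the downstream part was a separate peak as well, with a score of 125. Sh3bp5, a Rab11 exchange factor (chr14:31433156-31436811), was covered over 2835, 3492, and 2984 bp and over 1789, 2059, and 1845 bp (-0.71, SE 0.10, limma adjusted p = 0.0455). Its last peak ended 2300 to 2877 bp from the TSS in F/F and 1082 to 1416 bp in FC/FC. In NGS-6279 and NGS-6287 this last peak was separate and weak (scores of 90.5 and 57.2). The main peak ended there at 1279 and 1385 bp, within the FC/FC range. The call at Sh3bp5 was lost without NGS-6287, NGS-6295, NGS-6283, or NGS-6299 (limma adjusted p-values of 0.0964 to 0.169). Mpg no longer passed without NGS-6295 (0.0821) or NGS-6299 (0.0558), and Adgra3 without NGS-6295 (0.0734), all by limma adjusted p. With peak scores of at least 100, Mpg was at -0.54 and Sh3bp5 at -0.30, both with a limma adjusted p of 1.00. With equal numbers of peaks these were 1.00 and 0.0723, and with no trend 0.0524 and 0.260. Adgra3 did not pass after median centring (limma adjusted p = 0.198) or with no trend (0.260).

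The other 3 narrowed regions lay over 1 kb from a TSS. Near Sys1, a Golgi trafficking gene (chr2:164454550-164457586), peaks covered 2587, 2666, and 2747 bp in F/F and 774, 1066, and 945 bp in FC/FC, the largest fold among the regions that passed (log2 change -1.53, SE 0.12, limma adjusted p = 0.00142). The highest peak score in the region (10 times the negative log10 of the MACS p-value) was low in each library, from 155 to 271 in F/F and from 60.7 to 82.0 in FC/FC. Inside Thpo, the thrombopoietin gene (chr16:20724410-20727077), the cover was 2370, 2482, and 2391 bp against 1150, 1406, and 1170 bp (-0.96, SE 0.10, limma adjusted p = 0.00804, and 0.0507 with no trend). Near Rn4.5s, a repeated small RNA gene (chr6:47650133-47653596), it was 3335, 3285, and 3379 bp against 1776, 1915, and 1840 bp (-0.85, SE 0.07, limma adjusted p = 0.00142). Reads there can come from other copies of the sequence, so that region is uncertain.

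The stretch without an H3K4me3 peak in FC/FC measured 725 bp at Mpg to 1365 bp at Adgra3. At all 7 regions, 100% of it was covered by H3K4me2 peaks in each of the 6 H3K4me2 libraries. H3K4me1 peaks likewise covered 100% in each of the 6 H3K4me1 libraries at 6 regions, and 0% at Rn4.5s. Pdgfb, one of the genes with lower RPKM above, had a TSS peak of 3689, 3643, and 4230 bp in F/F and 2871, 3013, and 2987 bp in FC/FC, and its region did not pass (log2 change of width -0.38, limma adjusted p = 0.278).

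**Figure D3:**
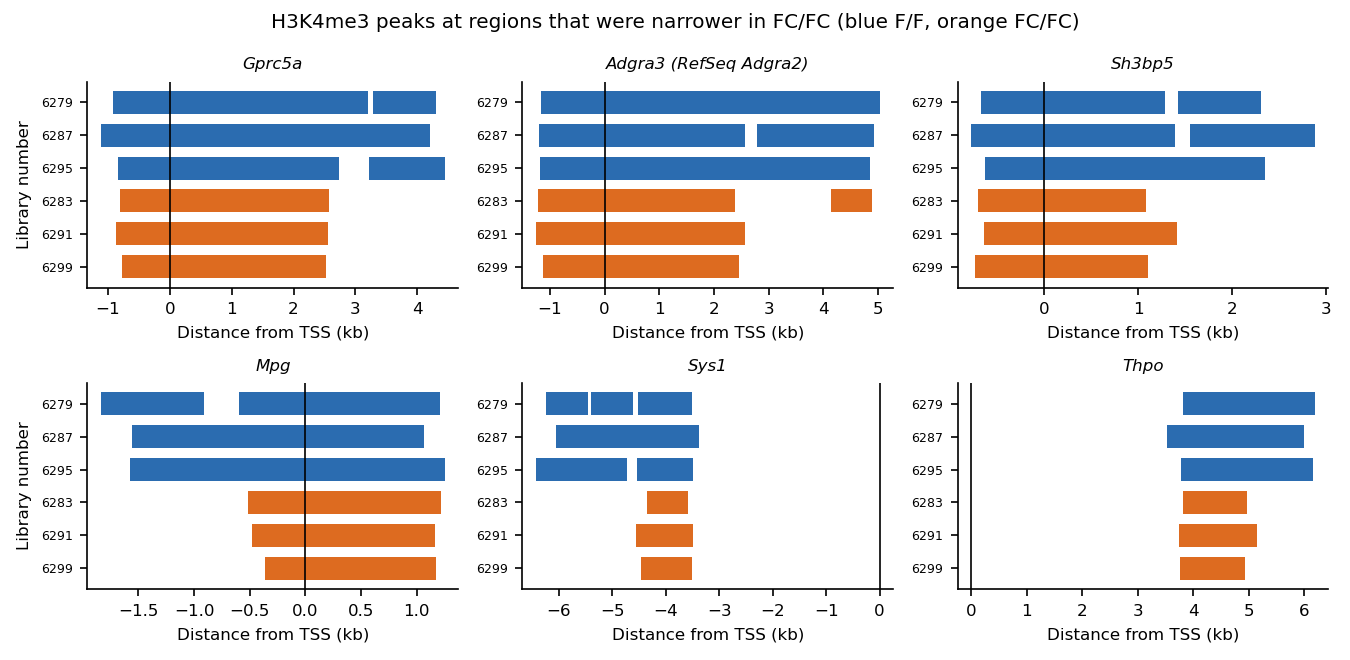
H3K4me3 peaks at 6 narrowed regions. Each row is a library (blue F/F, orange FC/FC), bars are MACS peaks, and the horizontal axis is the distance from the TSS (kb) in the direction of transcription, with the TSS as a vertical line. At Gprc5a, Sh3bp5, and Thpo the FC/FC peaks end earlier downstream, at Mpg and Sys1 they begin later upstream, and at Adgra3 NGS-6283 keeps a separate downstream peak. In some F/F libraries the outer part is a separate peak, as at Sh3bp5 and Mpg.

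Peaks were also compared by presence. Lost regions carried a peak in every F/F library and in no FC/FC library. Gained regions showed the opposite pattern. Of the 20154 regions, 107 were lost (0.531%) and 13 gained (0.0645%). These counts moved with the peak threshold: with a score of at least 100 they were 50 and 11, and with equally many peaks kept in each library, by score, 48 and 31. The score of a region is the highest peak score in each library, averaged over the libraries with a peak. Lost and gained regions were weak, with median scores of 79.7 and 81.8, against 3100 for regions with a peak in all 6 libraries. Within 1 kb of the TSS of any transcript lay 10 of the lost and 8 of the gained regions, beside 59.7% of all 20154 regions. The share lost was 0.0832% of the regions with a TSS within 1 kb. It was 1.61% of the other regions in a transcript and 0.889% of those outside transcripts. The shares gained were 0.0665%, 0.0293%, and 0.0847% in the same order. At the TSS of the longest transcript, 7 of 23043 genes lost the peak (0.0304%) and 9 gained one (0.0391%).

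The other H3K4 marks were examined at the same places. Of the 107 lost regions, 100 had an H3K4me2 peak in all 3 FC/FC libraries and 93 an H3K4me1 peak in all 3, and in F/F these numbers were 99 and 93. All 13 gained regions had H3K4me2 peaks in all 6 libraries, while H3K4me1 peaks were present in all 3 F/F libraries at 2 and in all 3 FC/FC libraries at 2. Among the 15047 regions with H3K4me3 in all 6 libraries, H3K4me1 peaks were present in all 3 FC/FC libraries at 83.0% and H3K4me2 peaks at 98.2%.

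The highest mean score among the lost regions was 192, in Sh3gl1, an endophilin gene (chr17:56024711-56028063). The regions near Myh9, nonmuscle myosin, and in Mpp5, a polarity gene, followed the promoters of Gm3716 and Mrgprf. At Mrgprf, an orphan receptor (chr7:145299801-145301848), the scores were 183, 81.3, and 174 in F/F with no peak in FC/FC. Its RPKM of 0.596, 0.495, and 0.498 in F/F and 0.364, 0.349, and 0.373 in FC/FC was too low for the test, and its H3K4me2 was 1.83 against 0.999 RPKM on average. Named after their values were seen, the other promoters outside the protocadherin clusters were those of Ppp1r12b, a subunit of myosin phosphatase, Gsn and Capg, which cap actin filaments, Plscr2, a phospholipid scramblase, Rrad, a Ras-related GTPase, and Adgrg1, an adhesion receptor. Pcdhb18 and Pcdha3, of the protocadherin clusters, made up the 10. Ppp1r12b, Gsn, Capg, and Adgrg1 were not among the genes that lost the peak at the TSS of the longest transcript.

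The strongest gained region, with a mean score of 137, lay between genes, nearest to 1700012A03Rik (chr6:31937818-31938837). At promoters, peaks were gained at Sgcz, a sarcoglycan (scores of 172, 102, and 113 in FC/FC), Pde3a, a phosphodiesterase (98.0, 65.4, and 195), Tmem108, a transmembrane protein gene (95.2, 66.5, and 148), and Slc8a3, a sodium and calcium exchanger (107, 134, and 54.5). The RPKM of these 4 genes was at most 0.173, in Slc8a3, with means of 0.0990 in F/F and 0.0975 in FC/FC at Sgcz and 0.110 and 0.112 at Tmem108. RPKM is averaged over the whole longest transcript, so these values do not resolve a short promoter peak. Among further gained promoter peaks, those named here, chosen after their values were seen, were at Nav2, a neuron navigator, Lhfpl3 with A930003O13Rik, and Panx2, a pannexin.

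Promoter sequences are shown for both kinds of region to set their CpG content side by side. RefSeq promoters could be assigned to 5 of the 10 lost and 4 of the 8 gained promoter regions. Of the 5 lost ones, only Gm3716 had also lost the peak at the TSS of its longest transcript. The lost ones held 2 to 8 CpG dinucleotides (median 7) and the gained ones 12 to 39 (median 15), beside a median of 22 at the 12979 promoters in regions with a peak in all 6 libraries. The motif GGGCGG was in 2 of 5 lost, 3 of 4 gained, and 67.0% of the latter promoters. With so few promoters this is a description. Of these, 2 lost and 2 gained promoters are printed 5′ to 3′ on the gene's strand, with Mpg as a promoter that kept its peak while the upstream part was narrowed. Capitals mark CpG dinucleotides. They are Capg (chr6:72549397-72549696, plus strand, 7 CpG), Ppp1r12b (chr1:134803793-134804092, minus strand, 8 CpG), Tmem108 (chr9:103761788-103762087, minus strand, 39 CpG), Nav2 (chr7:48958823-48959122, plus strand, 12 CpG), and Mpg (chr11:32226255-32226554, plus strand, 22 CpG).
Capg: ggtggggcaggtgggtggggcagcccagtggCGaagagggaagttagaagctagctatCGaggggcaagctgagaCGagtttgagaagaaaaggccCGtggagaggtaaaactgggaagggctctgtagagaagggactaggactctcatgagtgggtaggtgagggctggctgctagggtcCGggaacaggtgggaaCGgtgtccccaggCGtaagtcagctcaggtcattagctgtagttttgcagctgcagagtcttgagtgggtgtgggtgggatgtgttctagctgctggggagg
Ppp1r12b: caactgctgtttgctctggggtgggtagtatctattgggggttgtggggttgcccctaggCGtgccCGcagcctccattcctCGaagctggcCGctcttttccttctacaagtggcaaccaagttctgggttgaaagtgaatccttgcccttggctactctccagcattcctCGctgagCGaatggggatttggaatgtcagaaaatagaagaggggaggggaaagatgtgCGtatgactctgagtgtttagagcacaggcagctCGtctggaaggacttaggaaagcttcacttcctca
Tmem108: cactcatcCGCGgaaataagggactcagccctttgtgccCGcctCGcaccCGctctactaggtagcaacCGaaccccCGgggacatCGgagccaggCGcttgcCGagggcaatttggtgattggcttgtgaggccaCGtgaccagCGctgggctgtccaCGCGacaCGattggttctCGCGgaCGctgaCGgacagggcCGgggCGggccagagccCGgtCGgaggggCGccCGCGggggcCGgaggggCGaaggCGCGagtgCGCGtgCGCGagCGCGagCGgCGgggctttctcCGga
Nav2: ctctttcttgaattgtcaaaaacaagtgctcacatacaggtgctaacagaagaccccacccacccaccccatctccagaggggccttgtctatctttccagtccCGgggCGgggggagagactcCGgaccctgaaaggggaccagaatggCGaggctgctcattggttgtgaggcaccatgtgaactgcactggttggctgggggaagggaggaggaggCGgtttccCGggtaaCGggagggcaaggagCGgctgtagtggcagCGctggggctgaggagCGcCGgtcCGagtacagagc
Mpg: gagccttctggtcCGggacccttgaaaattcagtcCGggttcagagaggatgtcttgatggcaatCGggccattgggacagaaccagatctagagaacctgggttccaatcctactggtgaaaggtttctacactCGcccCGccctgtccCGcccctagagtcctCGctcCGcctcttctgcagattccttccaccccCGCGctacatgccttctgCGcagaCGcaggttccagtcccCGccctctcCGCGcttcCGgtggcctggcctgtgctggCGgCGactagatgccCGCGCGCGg

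At the genes of the H3K4 methylation machinery, H3K4me3 differed by at most 0.17 on the log2 scale. Kmt2d, the excised gene, had 2.83, 2.62, and 2.44 RPKM in F/F and 2.91, 2.79, and 2.65 in FC/FC (log2 fold change 0.08, SE 0.07, limma adjusted p = 0.991). The value covers the whole transcript and does not resolve the excised exons, so it does not check the labels. All 10 methyltransferase genes had a TSS peak in all 6 libraries, and the 6 that were tested, Kmt2b, Kmt2d, Kmt2e, Setd1a, Setd1b, and Setd7, had log2 fold changes of -0.00 to 0.10. Kmt2a, Kmt2c, Prdm9, and Smyd3 were too low in RPKM for the test. Of the complex subunits, such as the shared core subunits Wdr5 and Rbbp5, 13 were tested and differed by -0.08 to 0.09. The 11 readers tested, from Bptf at -0.02 to Phf13 at 0.17, and the 4 demethylases, from Kdm5a at -0.04 to 2410016O06Rik at 0.14, did not pass either. By limma, 0 members of these 4 lists had an unadjusted p under 0.05.

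Gene lists were described by counts and medians beside those of all genes. Over all 9073 genes, 5241 had a positive log2 fold change and the median was 0.01. None of the members of any list passed limma at an adjusted p under 0.05 in the main, unpaired fit.

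Core histone genes, which supply histones during DNA replication, had more H3K4me3 in FC/FC at 59 of the 60 tested, with a median log2 fold change of 0.19. The libraries did not overlap at 17 of them (28.3%, all higher, beside 3.41% of all genes), and 18 had an unadjusted p under 0.05, beside 1.72% of all genes. Summed over the 61 genes, F/F RPKM reached 877, 784, and 882, compared with 933, 895, and 1021 in FC/FC. NGS-6287 was the lowest and NGS-6299 the highest, and each decided part of the value: the median was 0.12 without NGS-6287 and 0.13 without NGS-6299, with 9 genes at an unadjusted p under 0.05 in both cases, when 82 and 107 of all genes were higher at that level. Without NGS-6291 there were 34 such genes, and 702 among all 9073. Hist1h4c had 9.02, 9.37, and 9.11 in F/F and 10.2, 12.3, and 10.9 in FC/FC (log2 fold change 0.27), and Hist1h4i 7.21, 7.63, and 7.35 against 8.15, 10.3, and 9.44 (0.32). The 5 linker histone genes had positive values too, with a median of 0.15, or 0.07 without NGS-6295. These genes are near copies of each other, so reads may be divided among them, and their levels are uncertain one by one.

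Cell cycle genes had less H3K4me3 in FC/FC at 27 of the 33 tested, with a median log2 fold change of -0.08. The libraries did not overlap at 8 of them (24.2%, all lower, beside 3.87% of all genes), and 9 had an unadjusted p under 0.05, beside 2.01% of all genes. That number was 3 without NGS-6287, 5 without NGS-6295, 2 without NGS-6283, and 6 without NGS-6299. Among all 9073 genes, 120, 139, 139, and 125 were lower at that level in the same fits, against 182 with all libraries. Cdc25b, a phosphatase that activates cyclin-dependent kinases, had 3.39, 3.33, and 3.52 RPKM in F/F and 3.07, 2.99, and 2.84 in FC/FC (log2 fold change -0.20). Mki67, the proliferation marker Ki-67, had 3.03, 3.20, and 3.24 against 2.78, 2.78, and 2.79 (-0.18), and Ccna2, cyclin A2, 7.45, 8.06, and 7.74 against 6.54, 6.36, and 7.23 (-0.21). Both were chosen after their values were seen, and in all 3 genes each FC/FC library lay below each F/F library. Cdk4, the member with the most H3K4me3, had 37.0 ± 2.3 and 36.4 ± 1.5 (SD, n = 3).

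Targets of p53, which respond to DNA damage, had more H3K4me3 in FC/FC at 15 of 19, with a median of 0.07. Trp53inp1, an inducer of apoptosis and autophagy, had 2.66, 2.31, and 2.81 RPKM in F/F and 3.17, 3.05, and 3.04 in FC/FC (log2 fold change 0.25). Cdkn1a, the cell cycle inhibitor p21, chosen after its values were seen, had 11.6, 13.0, and 13.0 against 13.5, 14.8, and 14.8 (0.19), and Ei24 was the third gene without overlap (0.21), so that 15.8% did not overlap, beside 3.41% of all genes. Phlda3, with the highest level, had 40.5 ± 0.97 and 42.5 ± 1.9 (SD, n = 3).

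The 81 ribosomal protein genes tested had a median of -0.04, with 62 negative, but the sign of the median turned when NGS-6287 or NGS-6283 was left out (0.02 in both cases). Apart from the lists taken from RNA, which are described last, the other lists had medians between -0.01 and 0.06, or fewer than 10 tested members. The medians of the fibroblast matrix, interferon response, actin and contractile, and housekeeping genes also turned sign when single libraries were left out. Imprinted genes were positive at 10 of 11 tested, 4 of them without overlap (36.4%, beside 3.41% of all genes), with Phlda2 as named above and Peg3, a zinc finger gene (0.16). Of 15 mesenchymal regulators and surface markers 11 were positive, 4 without overlap (26.7%, beside the same 3.41%), among them Snai2 with 29.3 ± 0.60 RPKM in F/F and 31.4 ± 0.73 in FC/FC (SD, n = 3) and Osr2 (0.15). Fibroblast matrix genes had a median of -0.01, with Col1a1 at 13.2, 13.9, and 14.6 against 12.6, 12.9, and 12.6 (-0.13). Among interferon response genes, Ifitm3, an antiviral membrane protein, had 18.9, 22.9, and 21.5 against 15.9, 18.7, and 15.7 (-0.33), while its neighbour in the family Ifitm2 had 30.8 ± 1.7 and 30.6 ± 1.5 (SD, n = 3). Immediate early genes were positive at 19 of 25 (median 0.06), with the genotypes not overlapping at Atf3 (-0.10).

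Hox genes, which set positional identity, differed little, with a median of 0.03 over 15 tested, 10 of them positive. Without NGS-6283 the median was -0.01, with 4 positive. Hoxc13 had the largest value, 1.70, 1.09, and 1.26 RPKM in F/F and 2.34, 1.62, and 1.88 in FC/FC (log2 fold change 0.51, SE 0.17, limma adjusted p = 0.991), and its genotypes overlapped. The 383 tested genes with the most γH2AX, which the study chose in other libraries of the same cells, had a median of 0.02. Without overlap, 12 were higher (3.13%, beside 3.41% of all genes) and 5 lower (1.31%, beside 3.87%). At an unadjusted limma p under 0.05, 11 of the 383 were higher and 1 lower, beside 1.72% and 2.01% of all genes.

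**Figure D4:**
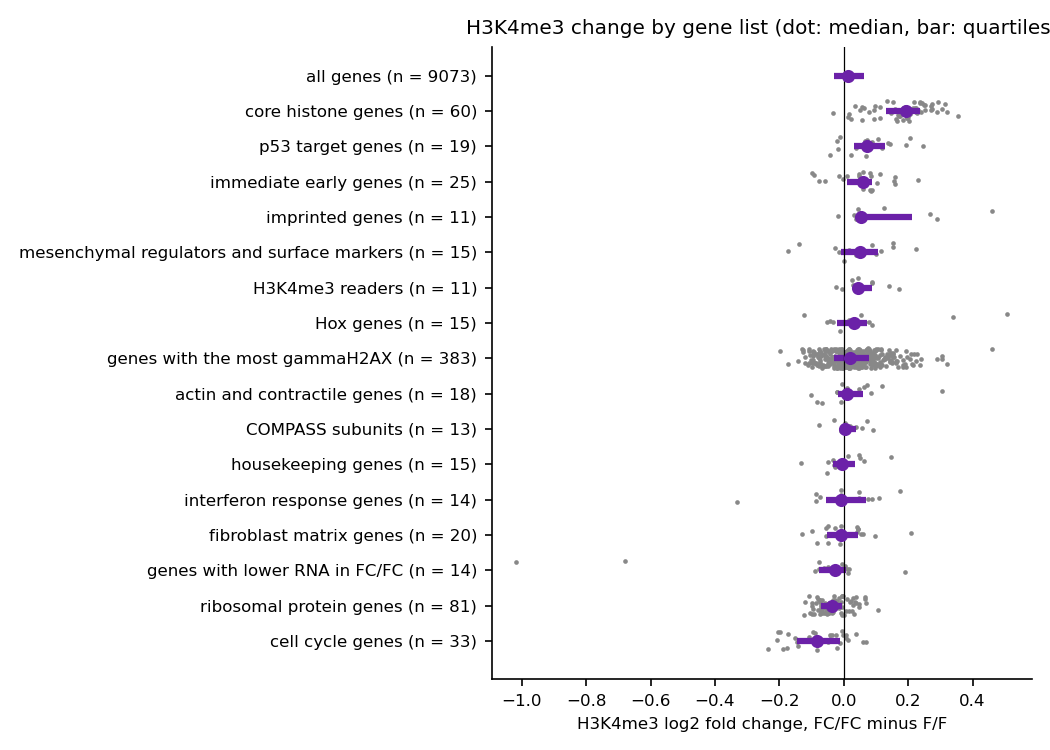
H3K4me3 change by gene list, for lists with at least 10 tested members. Grey points are genes, purple dots the medians, and purple bars the quartiles of the log2 fold change, FC/FC minus F/F (horizontal axis). Core histone genes lie to the right of 0 with a median of 0.19 and cell cycle genes to the left with -0.08, while the median of all genes is 0.01.

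The study measured RNA in F/F and FC/FC cells on expression arrays, and H3K4me3 was examined at the genes it listed as higher or lower. These lists were chosen on other samples. Most of their genes carried little H3K4me3: 28 of 36 genes with higher RNA were in the tables and 4 passed the filter, and 46 of 54 genes with lower RNA were in the tables and 14 passed. The median log2(RPKM + 0.1) of the 28 genes averaged -1.75 ± 0.06 in F/F, against -1.67 ± 0.04 in FC/FC (SD, n = 3, exact permutation p = 0.2). For the 46 genes with lower RNA it was -0.95 ± 0.01 and -1.03 ± 0.06 (exact permutation p = 0.1, the smallest possible). With the shortest transcript per symbol these were -1.06 ± 0.08 and -1.12 ± 0.08 (exact permutation p = 0.5). Over the 14 tested members alone the difference of these medians was 0.01 (exact permutation p = 0.9). Over the 4 tested genes with higher RNA it was 0.32 (exact permutation p = 0.1, the smallest possible). Gene by gene, the 14 had a median log2 fold change of -0.03, with 9 negative. At an unadjusted limma p under 0.05, 2 of the 14 were lower and 0 higher, beside 2.01% and 1.72% of all genes. Of the 4 tested genes with higher RNA, 2 were higher and 0 lower at that level.

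Crabp2, described above, was in the list with lower RNA. So was Scx, a transcription factor of tendon cells, with 7.11, 4.73, and 5.53 RPKM in F/F and 3.71, 2.96, and 3.99 in FC/FC (log2 fold change -0.68, SE 0.16, limma adjusted p = 0.607). Both had FC/FC values below all F/F values, while Gli1, an effector of Hedgehog signalling, differed by -0.09 and Zbtb42, a zinc finger gene, by 0.19 with a range of -0.05 to 0.49 when single libraries were left out. Mrgprf, which lost its TSS peak, belongs to the same list. In the list with higher RNA, Rgs4, a regulator of G-protein signalling, had 1.96, 1.50, and 1.99 against 3.52, 2.26, and 2.79 (log2 fold change 0.61, SE 0.16, limma adjusted p = 0.846), without overlap. Fst, the activin antagonist follistatin, had 6.51, 5.63, and 5.09 against 7.47, 6.28, and 6.56 (0.24), and its genotypes overlapped. Irf9 and Saal1, the other tested members, differed by 0.09 and -0.05.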

How the data were processed

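The submitters' notes name CASAVA 1.4, BWA 0.7.10, mm10, and MACS 1.4.2. The authors deposited RPKM per refGene transcript, extended by 500 bp at each end, and did not divide them by the H3 signal. The authors deposited peaks called per library against H3, with a score of 10 times the negative log10 of the p-value. Peaks in blacklisted regions had been taken out by the authors, per the methods. Transcripts under 250 bp were dropped and the longest kept per symbol (23043 genes). RPKM were whole multiples of 1 read within 0.01 read. Genes with RPKM above 1 in at least 3 libraries were tested with limma 3.58.1 (R 4.3.3) on log2(RPKM + 0.1), with Benjamini-Hochberg adjustment at 0.05. Widths were tested likewise on log2 bp covered, and peak measures and list medians by exact two-sided permutation tests over libraries. Peaks were merged at an overlap of at least 1 bp. Python 3.11.15, numpy 2.4.6, pandas 2.3.3, and matplotlib 3.10.9 were used, and the tests were tried on simulated data.

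The text names the genes and regions that passed, the 8 tested genes with the smallest p in each direction where fewer than 10 passed, the highest and widest, and members of gene lists. Exceptions are marked where they occur, and a few items that the rule covers are not reported here. Members and lists were chosen with earlier results of these data known. Alternatives covered the pseudocount, filters, transcript choice, scaling, fit, peak threshold, TSS window, and leaving out each library. A fit with pairs of libraries was added after seeing the data.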

Additional observations from a re-analysis of the deposited data

How the results depend on the processing

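With 3 libraries per genotype, differences of the size of the median standard error could not be detected, and RPKM cannot show a change common to all genes. Without single libraries, the genes that passed numbered 0 to 1, the regions with changed width 4 to 31, the lost regions 149 to 263, and the gained regions 21 to 114, since fewer libraries then define presence. The fit of 18 libraries passed 30 genes. Regions with changed width numbered 2 with no trend in the spread, 3 with a score of at least 100, and 4 with equal numbers of top-scoring peaks. Lost regions numbered 50 and 48 with the last 2 of these settings, and gained regions 31 with equal numbers. The Sys1 region was no longer present in all 6 libraries under both and could not be fitted there. The difference of the median peak width was -99.4 to 83.8 bp without single libraries. The median of the genes with lower RNA differed by 0.0096 over tested members only, and that of the genes with higher RNA by 0.32. Of the 7 named regions, none turned its sign in 75 values, and 19 values no longer passed. The cause of these changes was not tested.

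Small log2 fold changes turned sign. Under quantile normalization they were 0.029 at Gadd45b, 0.012 at Id1, and 0.019 at Myl6. Without single libraries the ranges were -0.044 to 0.0072 at Bptf, -0.050 to 0.0053 at Gadd45b, -0.058 to 0.023 at Id1, -0.090 to 0.027 at Kdm5a, -0.0018 to 0.053 at Kmt2b, -0.038 to 0.023 at Kmt2e, -0.023 to 0.0097 at Myl6, -0.028 to 0.027 at Sf3b5, and -0.050 to 0.49 at Zbtb42. The labels give no pairs. Chosen after seeing the data, a replicate block that paired libraries by the order of their library numbers passed 49 genes by limma (23 higher and 26 lower) and 11 regions, all narrower. Deviations from the genotype means correlated across genes, which are not independent, at 0.63 and 0.72 in 2 pairs and -0.22 in NGS-6295 with NGS-6299. NGS-6295 correlated best with NGS-6291 (0.29). The library numbers run in sets, in each of which F/F libraries precede FC/FC libraries of the same marks. Whether a set shares a culture or a day is not given. Deviations within a genotype cancel out, so these correlations depend on each other and cannot decide whether the libraries are paired. The unpaired fit was kept as the main one.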
